A study of Mus musculus with 27 samples.

Results

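Homeostatic astrocyte genes are a set of 31 transcripts that astrocytes of the resting brain use for glutamate uptake, water and ion transport, gap junctions and metabolism. Their rows were taken by gene symbol from the deposited FPKM table, which lists 26264 genes by lower case symbol (aqp4, slc1a2, aldh1l1), and all 31 were present. FPKM are fragments per kilobase of gene, scaled to the library's counted fragments, so levels of different genes can be set side by side. The libraries came from female 5xFAD mice on a B6 background, a transgenic model of familial Alzheimer's disease whose transgenes are driven by the neuronal Thy1 promoter, at 16 weeks of age and 24 h after a stereotaxic injection into the parietal association cortex of 1 hemisphere. Vehicle (cyclodextrin with DMSO, 4 mice), R33 (5 mice) or R55 (5 mice) was injected, both drugs at 10 mM. R33 and R55 are small molecules that the study uses to stabilise the VPS35-VPS29 part of retromer, an endosomal sorting complex. A block of about 1 cubic mm of cortex was taken around the injection site and from the matching place in the contralateral hemisphere, and each block gave 1 library, 27 libraries in all from 14 mice. Both hemispheres were used for 13 mice, and R33-treated mouse AE is represented by its injected hemisphere. All groups carry the 5xFAD transgenes, so the comparisons concern drug and injection, not the transgenes.

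Astrocytes clear glutamate from synapses with sodium-coupled transporters and return it to neurons as glutamine. Their end-feet on blood vessels hold water channels and ion transporters, and connexin gap junctions join the cells into a network. After injury astrocytes turn reactive, a state in which intermediate filament and inflammatory genes rise and parts of the homeostatic set may fall. Bulk tissue holds all cell types together, so fewer astrocytes and less of a transcript per astrocyte cannot be told apart in these values.

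Astrocyte transcripts were abundant in every library, and other cell types were present too. Libraries held 15932197 to 38077028 counted fragments, with a median of 27441310. The least abundant member, Slc14a1, was still covered by 339 to 1198 fragments per library. Of 12 neuron markers, 10 microglia markers, 10 markers of oligodendrocytes and their precursors, 8 endothelial and 9 mural or fibroblast markers, none was at 0 in any library. Among 6 markers of ependyma and choroid plexus Tmem212 was at 0 in some libraries, and the list's summed level ranged from 8.31 to 1657.2 FPKM. Of 5 red blood cell markers, Hba-a1, Hba-a2, Hbb-bs and Hbb-bt were at 0 in some libraries. The summed level of the 5 was low throughout, at 1.0 to 8.17 FPKM. In vehicle-treated mice 4 of the 31 members ranked among the 100 most abundant of the 12976 genes that passed a mean of 1 FPKM. These were Clu, the secreted chaperone clusterin, at 660 ± 112 FPKM (SD, n = 4 mice, mean of both hemispheres), Glul, glutamine synthetase, at 601 ± 118, Aldoc, an aldolase of glycolysis, at 384 ± 77.1, and Slc1a2, the main glutamate transporter, at 342 ± 78.3.

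Levels within the set spanned the range from these down to Slc14a1, a urea transporter, at 5.94 ± 1.96 FPKM. In the glutamate and proline group, Slc1a3, the second astrocytic glutamate transporter, stood at 169 ± 39.2 FPKM, Slc25a18, a mitochondrial glutamate carrier, at 62.5 ± 14.4, Slc7a10, a transporter of small neutral amino acids, at 16.5 ± 2.44, and Prodh, proline dehydrogenase, at 12 ± 1.79. Among transport genes, Atp1b2, a subunit of the sodium pump, stood at 262 ± 34.0, the water channel gene Aqp4 at 26.9 ± 8.95, the bicarbonate cotransporter gene Slc4a4 at 23.4 ± 6.21 and the zinc transporter gene Slc39a12 at 21.5 ± 5.69. The junction and end-foot genes ranged from Cldn10, a claudin, at 23.6 ± 5.99 to Mlc1, a membrane protein of end-feet, at 75.5 ± 19.7, with the connexin genes Gja1 at 69.7 ± 18.9 and Gjb6 at 28.8 ± 6.73 between them. Gja1 and Mlc1 differed by less than their SD, as did Cldn10 and Gjb6, while Gjb6 and Gja1 differed by more.

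The end-foot adhesion gene Hepacam stood at 43.9 ± 6.12 FPKM. Receptors ran from Mertk, a receptor tyrosine kinase used in phagocytosis, at 13.2 ± 2.88 FPKM to Gpr37l1, a G protein-coupled receptor, at 112 ± 20.1, with the growth factor receptor gene Fgfr3 at 29.7 ± 5.92 and the neurotensin receptor gene Ntsr2 at 79.6 ± 10.1. Secreted members besides Clu were Htra1, a serine protease, at 85.7 ± 14.8 and Bcan, the matrix proteoglycan brevican, at 62.5 ± 6.42. In the metabolic and intracellular group, S100b, a calcium-binding protein, stood at 86.3 ± 16.2, Ndrg2, an intracellular protein much used as an astrocyte marker, at 310 ± 85.6, Acsbg1, an acyl-CoA synthetase, at 66.1 ± 11.3, the folate enzyme gene Aldh1l1 at 25.8 ± 5.17, Ppp1r3c, a regulator of glycogen synthesis, at 19.5 ± 5.75, Dio2, which activates thyroid hormone, at 14.7 ± 2.89, and Sox9, a transcription factor of the glial lineage, at 10.8 ± 1.80. All SDs in these sentences are between 4 vehicle-treated mice.

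Promoters are shown for 4 members on which the results below turn. Mlc1 and Gpr37l1 moved most closely with the rest of the set across libraries, and Aldh1l1 and Slc25a18 were the members called in a comparison. On GRCm39, the authors' build, GENCODE places the gene Mlc1 on the minus strand of chromosome 15 (88840084 to 88863356), Gpr37l1 on the minus strand of chromosome 1 (135087972 to 135095419), Aldh1l1 on the plus strand of chromosome 6 (90463409 to 90577185) and Slc25a18 on the plus strand of chromosome 6 (120750346 to 120777941). The sequences come from RefSeq on another build, GRCm38.p6, and cover the 250 bases before the start that RefSeq lists, 5′ to 3′ on the gene's strand. Each window matched GRCm39 exactly at 1 place. The RefSeq start lay at the GENCODE start of Gpr37l1, 383 bases past that of Slc25a18, 600 past that of Mlc1 and 64366 past that of Aldh1l1, whose window (chr6:90527525-90527774 on GRCm39) thus lies inside the gene span at another start. Capitals mark TTGGC, the shorter motif of nuclear factor I, ACAAT, the SOX core motif, and CCAAT, the CCAAT box, each on either strand.
Mlc1 (chr15:88978554-88978803, minus strand): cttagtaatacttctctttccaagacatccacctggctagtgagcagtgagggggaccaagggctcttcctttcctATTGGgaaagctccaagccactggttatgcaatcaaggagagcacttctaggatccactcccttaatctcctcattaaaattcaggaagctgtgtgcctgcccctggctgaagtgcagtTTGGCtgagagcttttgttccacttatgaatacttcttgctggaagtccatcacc
Gpr37l1 (chr1:135167682-135167931, minus strand): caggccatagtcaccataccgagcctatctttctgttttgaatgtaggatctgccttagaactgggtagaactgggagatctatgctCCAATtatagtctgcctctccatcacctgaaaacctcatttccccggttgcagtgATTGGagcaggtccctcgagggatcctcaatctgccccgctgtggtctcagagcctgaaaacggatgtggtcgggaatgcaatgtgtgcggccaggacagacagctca
Aldh1l1 (chr6:90550543-90550792, plus strand): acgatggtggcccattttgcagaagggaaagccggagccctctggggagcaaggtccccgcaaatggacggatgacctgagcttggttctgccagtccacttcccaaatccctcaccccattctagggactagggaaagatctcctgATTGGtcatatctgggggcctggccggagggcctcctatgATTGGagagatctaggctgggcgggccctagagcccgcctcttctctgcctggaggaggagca
Slc25a18 (chr6:120773518-120773767, plus strand): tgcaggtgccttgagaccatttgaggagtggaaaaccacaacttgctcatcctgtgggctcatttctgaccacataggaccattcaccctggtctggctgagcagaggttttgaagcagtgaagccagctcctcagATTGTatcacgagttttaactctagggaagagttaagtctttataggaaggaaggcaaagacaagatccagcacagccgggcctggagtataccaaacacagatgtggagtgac

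The 4 promoters did not share 1 motif. Mlc1 held 1 TTGGC and 1 CCAAT box, Gpr37l1 and Aldh1l1 held 2 CCAAT boxes each, and Slc25a18 held 1 SOX core motif. RefSeq promoters were matched for 26 of the 31 members. TTGGC or its reverse GCCAA, which overlaps the CCAAT box where GCCAAT occurs, was found in 50.0% of these 26 and in 45.4% of the promoters of 10297 tested genes. CCAAT or ATTGG was found in 46.2% against 35.8%, ACAAT or ATTGT in 11.5% against 17.5%, and the GC box GGGCGG or CCGCCC in 11 of the 26 members against 6180 of the 10297 genes. The median GC content of these windows was 55.2% for members and 60.4% for tested genes. A match in these windows is a description of letters, not of binding.

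The members varied together from library to library. Each value was expressed as log2(FPKM + 1) minus the gene's own median over the 27 libraries. Across libraries, 459 of the 465 pairs of members had a positive Pearson correlation, with a median r of 0.62 (27 libraries, of which 26 are pairs from 13 mice), beside a median of 0.03 over all pairs of tested genes. Each member was also correlated with the mean of the other 30. The closest were Mlc1 (r = 0.96) and Gpr37l1 (r = 0.95), and the least close were Aldh1l1 (r = 0.51), Slc1a2 (r = 0.55), Bcan and Slc25a18 (r = 0.60 each). Aldoc and Ndrg2 were the closest pair (r = 0.96). These correlations are descriptions, and the points share depth, dissection and mouse.

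**Figure D1:**
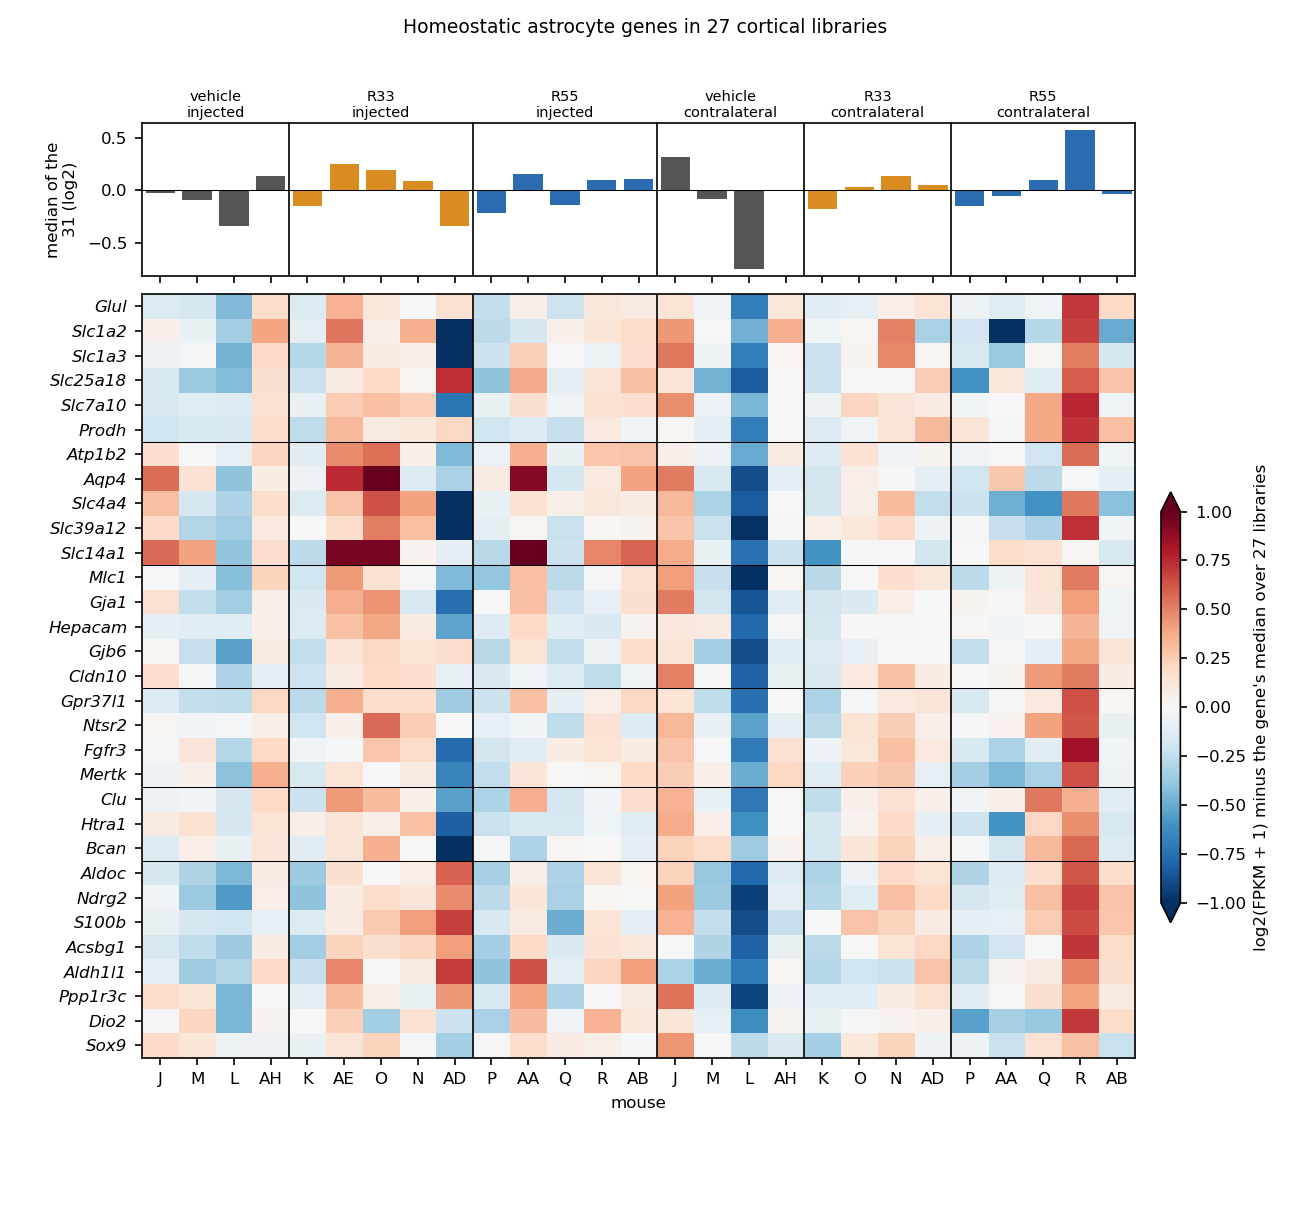
Levels of 31 homeostatic astrocyte genes (rows, grouped by role) in 27 libraries (columns, labelled by mouse), as log2(FPKM + 1) minus the gene's median, with the colour scale ending at 1 in either direction. Bars above give the median of the 31 in each library, from -0.75 in the contralateral library of vehicle-treated mouse L to 0.58 in that of R55-treated mouse R.

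Single mice, rather than treatment groups, stood at the ends of this range. In vehicle-treated mouse L, 0 of the 31 members were above their own median in either hemisphere, and the median deviation was -0.75 in the contralateral and -0.34 in the injected library. Of the 31 members, 21 had their lowest value of all 27 libraries in the contralateral library of mouse L. At the other end, 30 of 31 members were above their median in the contralateral library of R55-treated mouse R (median deviation 0.58), and 19 reached their highest value there. Mlc1 shows the range well, with 39.7 FPKM in the former library and 115 in the latter.

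Treatment groups overlapped widely. Contralateral vehicle-treated libraries alone ran from -0.75 (mouse L) over -0.08 (M) and 0.00 (AH) to 0.32 (J), so that this 1 group spanned most of the range. In the R33 group both libraries of mouse K were low, with 1 of 31 members above the median in each, and in the R55 group mouse P had 2 of 31 in the injected and 3 of 31 in the contralateral library. R33-treated mouse AE was high in its injected library (30 of 31, median deviation 0.25). Over the 13 mice with both hemispheres, the medians of the injected and contralateral libraries correlated with Pearson's r of 0.51 and Spearman's rho of 0.32, as a description.

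A list of 35 other astrocyte genes, none of them a member, tracked the set. Its mean deviation correlated with that of the members at r = 0.98 over the 27 libraries. In the contralateral library of mouse L 1 of these 35 was above its own median, and in that of mouse R 35 of 35 were. Over all tested genes the shares above the median were 42.0% and 37.7% in those libraries, so the whole transcriptome did not shift in this way. The mean deviation of the members correlated at r = 0.52 with that of the microglia list, 0.37 with reactive astrocyte genes, 0.32 with the oligodendrocyte list, 0.18 with the mural and fibroblast list, 0.08 with the endothelial list, -0.05 with the ependymal list and -0.41 with the neuron list. Oligodendrocyte markers were low as well in the contralateral library of mouse L, with a mean deviation of -1.04. The part of dissection or cell composition in these shifts was not tested.

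1 library split the set. In the injected hemisphere of R33-treated mouse AD, 10 members were higher and 21 lower than in the contralateral hemisphere of the same mouse. Slc1a2 read 75.4 FPKM against 259 in the contralateral library, a log2 difference of -1.77, and Slc1a3 read 68.5 against 174. Both were the lowest values of the 27 libraries. Slc39a12 (-1.02), Bcan (-1.11), Slc4a4 (-0.90) and Fgfr3 (-0.87) were also lower there. Against this, S100b read 156 FPKM against 102 (0.60), Slc25a18 122 against 86.3 (0.50) and Aldh1l1 50.0 against 37.3 (0.41), the highest values of any library for these genes.

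**Figure D2:**
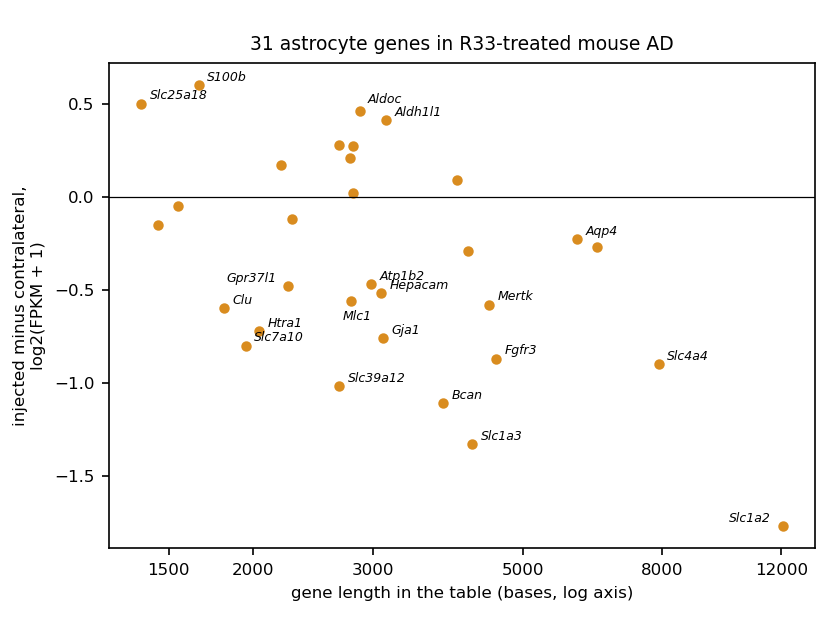
Difference between the injected and the contralateral library of R33-treated mouse AD in log2(FPKM + 1) (vertical axis) against the gene length behind the deposited FPKM (horizontal log axis), for 31 members. Slc1a2, the longest member at 12062 bases, has the largest negative difference (-1.77), and S100b and Slc25a18, at 1661 and 1367 bases, lie near the top.

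Gene length moved with this split. The 21 members that were lower in the injected library had a median length of 3088 bases and the 10 that were higher one of 2789 bases. Spearman's rho between length and the difference was -0.40 over the 31 members and -0.60 over all 12976 tested genes. In relation to the median of all libraries, rho between length and deviation over all tested genes was -0.69 in the injected library of mouse AD, -0.70 in the contralateral library of R55-treated mouse Q and -0.47 in the contralateral libraries of mice AD and AB. Across the other libraries it lay between -0.37 and 0.38. Slc1a2 was low in the contralateral libraries of mice AA (160 FPKM) and AB (228 FPKM) too. Without the injected library of mouse AD the median correlation between members was 0.69 and 0 of 465 pairs were negative. The paper reports that the RNA integrity number of every sample was above a stated floor. The part of RNA quality in this split was not tested.

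The first question of the design was whether either drug moved these genes, with treatment and hemisphere as additive factors in limma. After R55 no member passed an adjusted p of 0.05, and neither did any after R33. With R55, 27 of 31 members were above vehicle, with a median log2 difference of 0.14 beside 0.03 over all genes. With R33, 25 of 31 were above vehicle, with a median of 0.13 beside 0.02. Both comparisons use the same 4 vehicle-treated mice. Over all genes 60.2% were above vehicle with R55 and 57.5% with R33.

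These offsets rested on mouse L. Without it, 16 of 31 members were above vehicle with R55, with a median of 0.01, and 12 of 31 with R33, with a median of -0.02. Without the injected library of mouse AD the counts were 27 of 31 (0.14) and 31 of 31 (0.17). The SD of the members' median between mice of a treatment was 0.228, larger than either offset. It describes the spread of single mice, not the error of a difference between group means.

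Counts of members at an unadjusted p under 0.05 stood near those of all genes for R55. With R55, 2 of 31 members (6.45%) had such a p, beside 8.45% of all 12976 genes, while adjusted calls were 0 of 31 beside 0.00771% of genes. With R33 the counts were 5 of 31 (16.1%) beside 5.87%, and adjusted calls 0 of 31 beside 0% of genes. Without mouse L the unadjusted counts were 0 and 1, and without vehicle-treated mouse J, whose contralateral library was high, they were 11 and 8, so that each depended on which of the 4 vehicle-treated mice entered. The R33 count was 2 without the injected library of mouse AD, 2 with the length trend removed and 1 with 1 value per mouse.

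**Figure D3:**
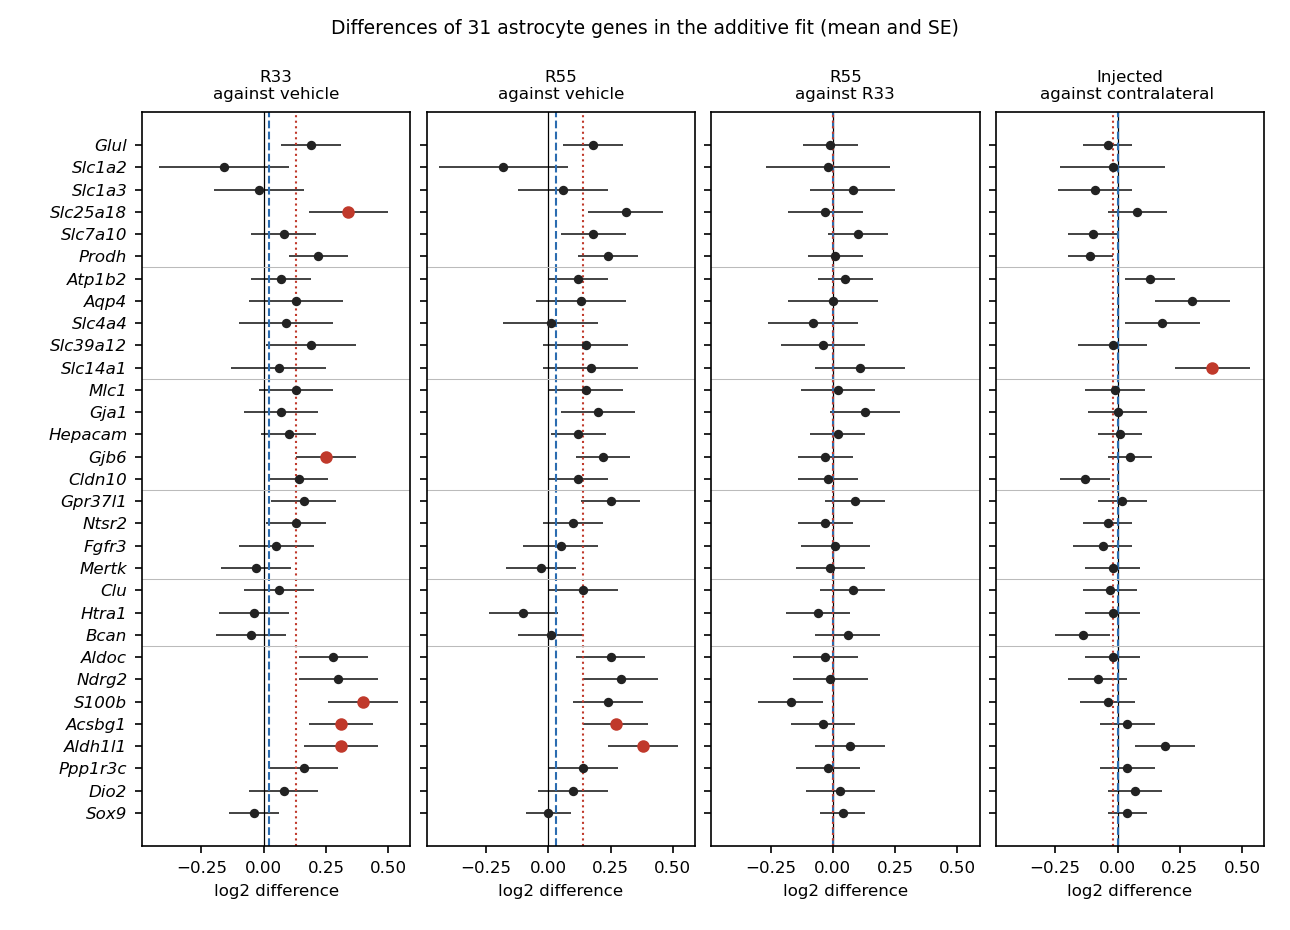
Log2 differences of 31 members (points, with bars of 1 SE) in the 4 comparisons of the additive fit, with red points for an unadjusted p under 0.05. Dotted red lines mark the members' median and dashed blue lines the median of all tested genes, 0.14 and 0.03 for R55 against vehicle.

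Aldh1l1 had the smallest p among members for R55. Its level was 28.5, 23.5, 24.6 and 34.8 FPKM in injected vehicle-treated libraries (mice J, M, L, AH) and 24.2, 21.3, 18.3 and 30.9 in contralateral ones. In R55-treated mice it was 22.7, 48.0, 28.4, 35.5 and 40.9 FPKM in injected libraries (P, AA, Q, R, AB) and 25.1, 31.1, 32.2, 43.4 and 34.0 in contralateral ones. The groups overlapped, since mouse P did not exceed the range of vehicle and vehicle-treated mouse AH stood above several R55 values. The log2 difference was 0.38 (SE 0.14), a 1.30-fold difference on the log2(FPKM + 1) scale, with an unadjusted limma p of 0.0124 and an adjusted p of 0.552. Averaged over hemispheres, the levels were 34.1 ± 6.87 FPKM (SD, n = 5 mice) and 25.8 ± 5.17 (n = 4). The 2-sided exact permutation p was 0.0952 over 126 assignments. Aldh1l1 was 1 of 4 genes so tested in this comparison, chosen for the smallest limma p of 31 members.

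With R33 Aldh1l1 stood at 25.7, 43.1, 30.4, 32.2 and 50.0 FPKM in injected libraries (K, AE, O, N, AD) and at 24.8, 26.3, 26.1 and 37.3 in contralateral ones (K, O, N, AD). The values of mice K, N and O overlapped with vehicle, and the high ones came from mice AE and AD. These are the 2 R33-treated mice whose labels have 2 letters, a split by which Aldh1l1 also differed, as given below. Vehicle-treated mouse AH and R55-treated mice AA and AB have such labels too. Its log2 difference from vehicle was 0.31 (SE 0.15, adjusted p = 0.834).

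S100b had the smallest p for R33. It read 91.7, 85.9, 83.8 and 91.1 FPKM in injected vehicle-treated libraries (J, M, L, AH) and 123, 81.7, 51.7 and 81.9 in contralateral ones. In R33-treated mice it read 87.7, 102, 116, 129 and 156 FPKM in injected libraries (K, AE, O, N, AD) and 96.5, 118, 113 and 102 in contralateral ones (K, O, N, AD). In injected hemispheres 4 of the 5 R33 values lay above every vehicle value, while contralaterally the library of mouse J was above all R33 values. The log2 difference was 0.40 (SE 0.14), with an unadjusted p of 0.00766 and an adjusted p of 0.834 in limma. Over mice the levels were 112 ± 14.8 FPKM (n = 5) against 86.3 ± 16.2 (n = 4), with an unadjusted exact permutation p of 0.0397. The 4 genes so tested were those with the smallest limma p of the 31 members on the same data.

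The other members with small p-values belonged to metabolism, glutamate handling and junctions. Acsbg1 stood at 66.1 ± 11.3 FPKM in vehicle (n = 4 mice), 83.1 ± 13.1 with R33 (n = 5) and 80.7 ± 16.7 with R55 (n = 5), with exact permutation p-values of 0.103 and 0.198 against vehicle. Slc25a18 stood at 62.5 ± 14.4, 78.9 ± 15.5 and 77.9 ± 18.2 FPKM, with log2 differences of 0.34 (SE 0.16) for R33 and 0.31 (SE 0.15) for R55. The R55 difference of Slc25a18 was 0.18 without vehicle-treated mouse L and 0.45 without mouse P. Gjb6 stood at 28.8 ± 6.73, 34.1 ± 2.89 and 33.3 ± 4.62 FPKM, and its permutation p for R33 was 0.159. For Prodh, at 12 ± 1.79 and 14.4 ± 2.29 FPKM, the p for R55 was 0.127. Each of these groups overlapped over mice.

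The values behind these means were as follows. Acsbg1 read 68.6, 64.1, 59.6 and 81 FPKM in injected vehicle-treated libraries (J, M, L, AH) and 76.8, 62.1, 43.5 and 73 in contralateral ones. With R33 it read 60, 89.9, 86.1, 89.5 and 103 FPKM on the injected side (K, AE, O, N, AD) and 63.4, 76.4, 84.6 and 88.9 on the other (K, O, N, AD). With R55 it read 60.6, 88.2, 69.5, 85.1 and 83 FPKM on the injected side (P, AA, Q, R, AB) and 61.7, 67, 76.9, 127 and 87.3 on the other. On the injected side all mice but K stood above vehicle with R33, and mice AA, R and AB did with R55. On the contralateral side mice N and AD, and mice Q, R and AB, stood above the highest vehicle library, while mice K and P stood among the vehicle values on both sides.

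Slc25a18, a mitochondrial glutamate carrier, read 65.3, 56, 53.4 and 81.3 FPKM in injected and 79.5, 51.9, 40.4 and 72.6 in contralateral vehicle-treated libraries. With R33 it read 62.3, 77, 83.4, 73.5 and 122 FPKM in injected and 62.5, 72.6, 72.3 and 86.3 in contralateral libraries, and with R55 54.6, 94.6, 68.3, 79.6 and 89.6 and 47.7, 78.2, 66.8, 111 and 88.9, with mice in the order just given. Vehicle-treated mice J and AH overlapped with both drugs, mouse P was below most vehicle values, and the highest levels were in mice AD and R.

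Gjb6 read 33.7, 28.2, 22.5 and 35.4 FPKM in injected and 36.1, 26, 17.5 and 30.8 in contralateral vehicle-treated libraries. With R33 it read 27.8, 36.3, 38.4, 36.6 and 37.5 and 30.3, 31.3, 33.2 and 33.3 FPKM, and with R55 27.2, 36.6, 27.8, 32 and 37.6 and 27.8, 33.5, 31.1, 43.8 and 36.1 FPKM. Vehicle-treated mouse AH lay within the range of both drugs on either side, mouse J did so except against contralateral R33, which it exceeded, and mice L and M gave the low vehicle values.

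The glutamate transporters clear transmitter from synapses. Slc1a2 read 336, 309, 256 and 427 FPKM in injected vehicle-treated libraries and 438, 324, 232 and 414 in contralateral ones. With R33 it read 302, 469, 338, 414 and 75.4 and 314, 331, 461 and 259 FPKM, and with R55 270, 286, 336, 352 and 368 and 283, 160, 266, 522 and 228 FPKM. The injected library of mouse AD and the contralateral ones of mice AA and AB gave the low values of the drug groups, and the contralateral library of mouse R the highest of all.

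Slc1a3 read 166, 170, 124 and 197 FPKM in injected and 249, 166, 106 and 174 in contralateral vehicle-treated libraries. With R33 it read 141, 218, 182, 178 and 68.5 and 148, 176, 241 and 174 FPKM, and with R55 148, 203, 172, 165 and 193 and 155, 133, 174, 246 and 152 FPKM. The groups overlapped on both sides, and the contralateral libraries of mice J, N and R stood together at the top.

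By role, the metabolic and intracellular group had the highest medians and the secreted group the lowest in the fit of all 27 libraries. For the 8 metabolic and intracellular members the median log2 difference was 0.24 with R55 and 0.29 with R33, with 7 of 8 above vehicle in each. The 6 glutamate and proline genes had medians of 0.18 and 0.13, the 5 transport genes 0.13 and 0.09, the 5 junction and end-foot genes 0.15 and 0.13, and the 4 receptors 0.08 and 0.09. The 3 secreted members had medians of 0.01 and -0.04. Slc1a2, at 342 ± 78.3 FPKM in vehicle, 343 ± 120 with R33 and 307 ± 78.9 with R55, was the member furthest below vehicle in the fit, with log2 differences of -0.16 and -0.18. Without the injected library of mouse AD, 31 of 31 members were above vehicle with R33, Slc1a2 and the secreted members among them. None of these genes passed the adjusted threshold, and the roles were not tested against each other.

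R55 and R33 were given at the same concentration and time, so they could be compared directly over 31 members. No member differed at an adjusted p of 0.05 (0 of 31 beside 0% of all genes) or at an unadjusted p under 0.05 (0 of 31 beside 1.15% of all genes). R55 was above R33 for 16 members and below for 15, with a median of 0.00. Differences ran from -0.17 for S100b (SE 0.13, adjusted p = 1) to 0.13 for Gja1 (SE 0.14, adjusted p = 1). The 95% normal intervals of the 31 differences reached from -0.51 (Slc1a2) to 0.47 (Slc14a1). Differences of at least that size in either direction are left within the error for these genes. The intervals treat libraries of the same mouse as independent, although their estimated correlation was 0.35, so they are likely too narrow. With the mouse as a random block, the unadjusted limma p of S100b was 0.328 instead of 0.223. That of Gja1 was 0.515 instead of 0.376.

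The genes with the smallest p-values between the drugs overlapped between the groups. Gja1, the main connexin of astrocytes, read 66.6, 95.2, 101, 66 and 43.2 FPKM in injected and 64.9, 66.7, 77.3 and 73.9 in contralateral libraries with R33, and 73.7, 91.2, 63.8, 69.6 and 82.6 and 75.6, 74.3, 80.2, 98.9 and 71.4 with R55. Gpr37l1 read 102, 158, 140, 139 and 95.7 and 98.4, 122, 132 and 134 FPKM with R33, and 106, 152, 115, 129 and 142 and 110, 122, 132, 193 and 125 with R55. Of the drug-treated libraries, that of mouse AD was lowest on the injected side and that of mouse R highest on the contralateral side in both genes. Over 5 mice against 5, the exact permutation p-values of S100b, Gja1, Slc7a10 and Gpr37l1 were 0.278, 0.532, 0.563 and 0.746.

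The next question was what the injection itself did, comparing injected with contralateral hemispheres over treatments. No member passed an adjusted p of 0.05 (0 of 31 beside 0% of genes), and 1 of 31 (3.23%) had an unadjusted p under 0.05, beside 3.47% of all genes. The median over members was -0.02, beside 0.00 over all genes, with 13 members higher in the injected hemisphere. This direction depended on single mice. Without the injected library of mouse AD 22 members were higher (median 0.02). Without the contralateral library of mouse R 24 were (0.04), and without mouse L 11 were (-0.05). The transport group had the median furthest from 0, at 0.18, with 4 of its 5 genes higher. With the mouse as a block, which compares the hemispheres of each mouse, 3 of 31 members had an unadjusted p under 0.05, beside 6.13% of all genes, and 0 an adjusted one.

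Slc14a1 read 8.80, 7.75, 4.04 and 6.42 FPKM in injected vehicle-treated libraries (J, M, L, AH) and 7.54, 5.33, 2.94 and 4.71 contralaterally. In R33-treated mice it read 4.53, 11.8, 11.8, 5.77 and 5.20 FPKM on the injected side (K, AE, O, N, AD) and 3.38, 5.52, 5.62 and 4.83 on the other (K, O, N, AD). In R55-treated mice it read 4.46, 12.2, 4.70, 8.29 and 8.90 FPKM on the injected side (P, AA, Q, R, AB) and 5.62, 6.51, 6.37, 5.74 and 4.94 on the other. It was higher on the injected side in 11 of 13 mice, mice P and Q being the exceptions, although the hemispheres overlapped as groups. The log2 difference was 0.38 (SE 0.15, adjusted p = 1) without the block and 0.32 with it (unadjusted p = 0.00502, adjusted p = 0.642). An exact permutation test that swapped hemispheres within the 13 mice gave p = 0.0132, unadjusted for 4 genes chosen from 31 by limma p.

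The water channel gene Aqp4 came next. It read 39.0, 29.1, 19.6 and 27.7 FPKM in injected vehicle-treated libraries (J, M, L, AH) and 38.0, 23.5, 13.7 and 24.4 in contralateral ones. In R33-treated mice the injected values were 25.1, 44.7, 55.5, 23.7 and 20.7 FPKM (K, AE, O, N, AD) and the contralateral ones 23.0, 27.5, 26.4 and 24.5 (K, O, N, AD). In R55-treated mice they were 27.8, 50.5, 23.1, 28.1 and 34.9 FPKM (P, AA, Q, R, AB) and 22.7, 31.7, 21.7, 26.2 and 24.4. Aqp4 was higher on the injected side in 11 of 13 mice, with mice N and AD as the exceptions, and the largest differences were in mice O (0.99) and AA (0.66). The log2 difference was 0.30 (SE 0.15, unadjusted p = 0.0568), with the block 0.26 (unadjusted p = 0.00765, adjusted p = 0.656), and the exact permutation p was 0.0127. Aldh1l1 was higher in 10 of 13 mice by 0.17 with the block (adjusted p = 0.712, exact permutation p = 0.0374). Cldn10 was higher in 2 of 13, with a log2 difference of -0.13 (SE 0.10).

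**Figure D4:**
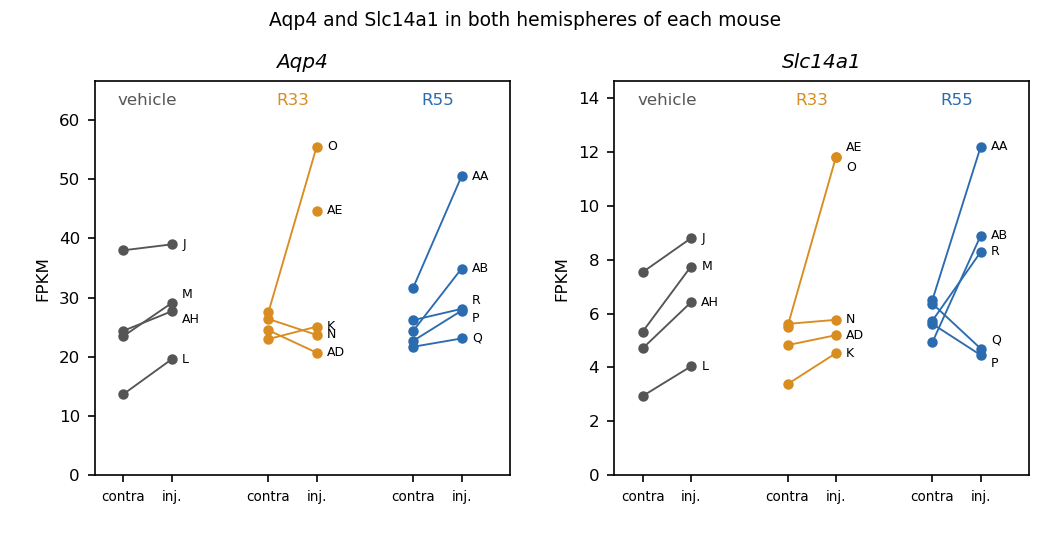
FPKM of Aqp4 and Slc14a1 in the contralateral and injected libraries, with a line for each of 13 mice and a single point for mouse AE. Lines slope upward from contralateral to injected in 11 of 13 mice for each gene, and mice O and AA have the steepest.

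Genes of the reactive state are given beside these values. Between injected and contralateral hemispheres, 0 of 16 tested reactive astrocyte genes passed an adjusted p of 0.05, beside 0% of all genes. An unadjusted p under 0.05 was found for 9, all higher, beside 3.47% of all genes. All 16 of 16 were higher, with a median of 0.26 beside 0.00. Mice differed: the list's mean deviation was 0.98 injected and -0.32 contralateral in mouse AD. It was lower on the injected side in mice P (-0.42 against -0.26) and Q (-0.15 against 0.17). Stat3, a transcription factor of the reactive state, had a log2 difference of 0.29 (SE 0.07, adjusted p = 0.944). Of the 35 other astrocyte genes 12 were higher, with a median of -0.02 and 1 at an unadjusted p under 0.05. Summed levels of the 21 listed reactive genes ranged from 198 to 885 FPKM in injected and from 141 to 515 FPKM in contralateral libraries.

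Within each hemisphere no member was called for either drug. For R55 in the contralateral hemisphere, 4 of 31 members had an unadjusted p under 0.05, beside 11.2% of all genes, adjusted calls were 0 beside 0.0231% of genes, and the median difference was 0.26 beside 0.05. Without mouse L that median was 0.03, with 19 of 31 above vehicle. In the injected hemisphere R55 gave 0 of 31 beside 0.825% of all genes, adjusted calls 0 beside 0%, and a median of 0.06. For R33 the counts at an unadjusted p under 0.05 were 1 of 31 beside 1.75% in the injected hemisphere and 0 of 31 beside 2.62% in the contralateral one, with medians of 0.09 and 0.14 and adjusted calls of 0 beside 0% in both. Without mouse L the injected medians were -0.02 for R55 and -0.004 for R33, and the contralateral median for R33 was -0.04, with 10 of 31 members above vehicle.

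Prodh gave the smallest p of these fits. In contralateral libraries it read 13.3, 12.2, 7.73 and 13.1 FPKM in vehicle-treated mice (J, M, L, AH), 11.8, 12.7, 14.4 and 16.7 in R33-treated mice (K, O, N, AD), and 14.4, 12.9, 17.4, 22.3 and 16.4 in R55-treated mice (P, AA, Q, R, AB). On that side 4 of the 5 R55 values lay above every vehicle value. On the injected side it read 11.3, 11.7, 11.7 and 15 FPKM with vehicle and 11.3, 11.8, 11, 14.1 and 12.8 with R55, with full overlap. The contralateral log2 difference of R55 from vehicle was 0.50 (SE 0.15, unadjusted p = 0.00283, adjusted p = 0.356).

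The injection was also compared within each treatment, and its interaction with drug was tested. In vehicle-treated mice 0 of 31 members had an unadjusted p under 0.05, beside 1.08% of all genes, and in R33-treated mice 0 of 31, beside 2.84%. In R55-treated mice 2 of 31 did, beside 3.66%, namely Prodh (-0.40, SE 0.14) and Cldn10 (-0.33, SE 0.16), both lower on the injected side. With the mouse as a block that count was 4 of 31, beside 9.53% of all genes. Without the block, leaving out the contralateral library of mouse R gave 1 of 31, beside 862 of 12976 genes. The members' median was then 0.05, beside -0.08 with that library. The R55 interaction gave 1 of 31, beside 1.84%, again Prodh (-0.52, SE 0.21, adjusted p = 0.999), with a members' median of -0.18, which was -0.06 without mouse L. The R33 interaction gave 0 of 31, beside 0.378%, and a median of -0.05, which was 0.06 without mouse L and 0.02 without the injected library of mouse AD. Adjusted calls were 0 of 31 beside 0% of genes in each of these 5 fits, with and without the block. Apart from the block count for R55, the values above do not pair the hemispheres by mouse. With the block, unadjusted counts for vehicle, R33 and the R55 and R33 interactions were 0, 0, 1 and 0 of 31 members. Beside these stood 328, 816, 770 and 124 of 12976 genes, against 140, 368, 239 and 49 without it. The members' medians with the block were 0.1, -0.03, -0.18 and -0.11 in that order. In R33-treated mice the median without it was 0.03.

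Mice carry labels of 1 letter (9 mice) or 2 letters (5 mice), whose meaning the labels do not give, and more genes differed by this split than by drug or injection. Vehicle, R33 and R55 each had mice of both kinds: 3, 3 and 3 of 1 letter, and 1, 2 and 2 of 2 letters. With treatment and hemisphere in the limma model, 2 of 31 members (6.45%) differed at an adjusted p of 0.05, beside 19.1% of all genes, and 3 of 31 (9.68%) at an unadjusted p under 0.05, beside 33.9%. The split is between mice, yet in this fit each mouse enters with 1 row per hemisphere. With 1 value per mouse 1 of 31 members (3.23%) was called beside 5.71% of all genes, and with the mouse as a random block 2 of 31 beside 10.4%. Without the contralateral library of mouse R 5 of 31 (16.1%) were called, beside 21.5%.

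Both members called were higher in mice with 2-letter labels. Aldh1l1 had a lowest, median and highest level of 18.3, 25.9 and 43.4 FPKM in 18 libraries of 1-letter mice and of 30.9, 37.3 and 50.0 FPKM in 9 libraries of 2-letter mice. Averaged over hemispheres it stood at 39.3 ± 4.44 FPKM (n = 5 mice) against 27.4 ± 5.43 (n = 9). The limma log2 difference over libraries was 0.45 (SE 0.09, adjusted p = 0.00168). With 1 value per mouse the adjusted limma p was 0.0238. The exact permutation p over mice was 0.0030, unadjusted for 4 genes chosen from 31 by limma p. Mouse R, of 1 letter, overlapped with the 2-letter mice. In the same order, Slc25a18 read 40.4, 66.0 and 111 FPKM and 72.6, 86.3 and 122 FPKM, a log2 difference of 0.38 (SE 0.11, adjusted p = 0.0191) with an exact permutation p of 0.028. This call was lost with 1 value per mouse (adjusted p = 0.114) and without mouse P (0.0566), AH (0.0727) or AD (0.0785). Next came Gjb6 (0.20, SE 0.09, adjusted p = 0.135) and Bcan (-0.22, SE 0.11, adjusted p = 0.156).

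**Figure D5:**
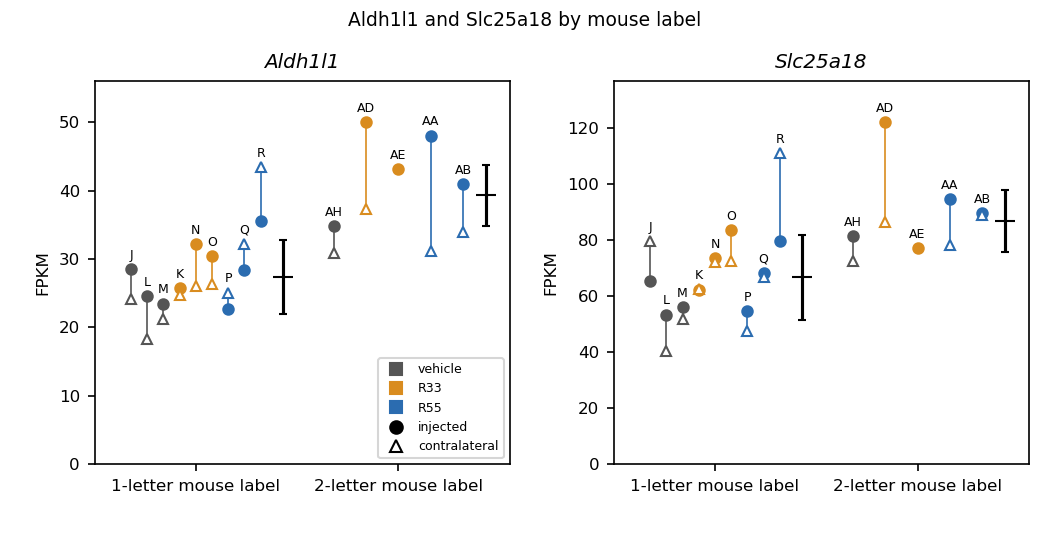
FPKM of Aldh1l1 and Slc25a18 in each library by the number of letters in the mouse label, with a line joining the hemispheres of a mouse and black bars for the mean and SD over 9 and 5 mice. For Aldh1l1 the 2-letter libraries lie between 30.9 and 50.0 FPKM and the 1-letter ones between 18.3 and 43.4.

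Other lists moved with the same split. Their calls come from the same fit with 1 row per hemisphere, in which 19.1% of all genes were called. With 1 value per mouse that share was 5.71%. All 8 endothelial markers were lower in 2-letter mice, 8 of 8 at an adjusted p of 0.05, with summed levels of 38.6 to 58.0 FPKM against 56.4 to 149. The 10 microglia markers had a median log2 difference of 0.47 and the 16 tested reactive astrocyte genes one of 0.27, both higher in 2-letter mice. Of 9 mural and fibroblast markers 4 passed, 3 of them higher. The 1 tested red blood cell marker, Alas2, was higher by 0.64 (adjusted p = 0.00801). None of 12 neuron markers, 10 oligodendrocyte markers or 5 ependymal markers passed. Among the 35 other astrocyte genes 1 passed, Slco1c1, a transporter shared with brain endothelium (-0.78, SE 0.09, adjusted p = 2.72e-06). The part of batch or cell composition in the 2 members' calls was not tested. When the label letters entered the drug comparisons as a covariate, the members' medians were 0.13 for R55 and 0.11 for R33, and within 1-letter mice 0.17 and 0.19. The R55 difference of Slc25a18 from vehicle was 0.249 with this covariate and 0.277 within 1-letter mice, beside 0.31 in the main fit.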

How the data were processed

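RNA was measured in cortical blocks of 14 mice. The authors sequenced stranded mRNA libraries as paired-end reads, used HISAT2 to align them to GRCm39 and deposited FPKM for 32 libraries. The counting tool and annotation are not given in the sources used here. The authors tested with DESeq2. In the deposited FPKM, 100.0% of values were whole multiples of 1 fragment within 0.01, so fragments and gene lengths were recovered. 5 libraries were not used here.

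Groups follow the treatment and hemisphere in the labels. The tested genes, 12976 with all 31 members, averaged 1 FPKM or more in the 27 libraries. They were analysed on log2(FPKM + 1) with limma 3.58.1 in R 4.3.3, with treatment and hemisphere as factors, an intensity trend and Benjamini-Hochberg adjustment over all genes. The pseudocount understates changes of low genes. Fits on 6 group means gave values within hemispheres and interactions. Libraries of a mouse share its label, and hence the animal: over 13 pairs their deviations correlated by -0.0787 to 0.648 (mean 0.394). The main fits count them as separate, and fits with the mouse as a block were alternatives. Permutation tests were exact, 2-sided and over mice. The replicates are separate mice.

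Members, lists and tests were chosen with earlier results of these data known. Any member could be named. Values in single libraries are given for members called in a comparison, for most of those with small p-values and for the glutamate transporters, water channel and main connexin. Members with the 4 smallest p-values in each additive and label comparison were tested over mice. These permutation p-values follow that choice from 31 members on the same data, so they are not independent support. Outside the set, 1 reactive and 1 other astrocyte gene with the smallest p-values are named with test results. So is Alas2, the only tested red blood cell marker. Alternatives covered the pseudocount (0.1), no filter, median-of-ratios scaling, removal of a length trend (lowess span 0.3), label letters as a covariate, 1 value per mouse and each mouse left out.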

Additional observations from a re-analysis of the deposited data

Results flagged for a closer look

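In 96 groups of 4 or 5 libraries, 15 named members and the members' median among them, 5 values lay far from the rest of their group by Dixon's criterion, and chance marks about 1 in 20 groups. Aldh1l1 in the contralateral library of R33-treated mouse AD (37.3 FPKM) stood above the other 3 libraries, which lay between 24.8 and 26.3. Gjb6 in the injected library of R33-treated mouse K (27.8 FPKM) stood below the other 4, at 36.3 to 38.4. Gpr37l1 in the contralateral library of R55-treated mouse R (193 FPKM) stood above the other 4, at 110 to 132. In the injected library of vehicle-treated mouse AH, Prodh (15 FPKM, others 11.3 to 11.7) and Slc7a10 (18.7 FPKM, others 14.9 to 15.4) were high.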

How the results depend on the processing

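The members' median log2 difference and the count of members at an adjusted p under 0.05 were recomputed for 14 comparisons, giving 614 values. A median was taken to move only past 0.228, the SD between mice, or a count past 1.5 times, which 7 values did. Since that SD exceeds nearly every median, staying within it shows little: 20 of 307 alternative medians took the other sign, at -0.044 to 0.065. Of 1086 other values, 134 counts of genes moved, Slc25a18 lost its call in 4 settings and Gjb6 gained one in 2, both for the label letters, and 1 difference reversed. For R55 against vehicle in the contralateral hemisphere the median ranged from 0.031 (without mouse L) to 0.419 (without mouse J). For the label letters the count of members called was 1 with 1 value per mouse, 5 without the contralateral library of mouse R (chosen after seeing the data), and 1 to 5 when each mouse was left out, 1 without mouse P, AH or AD and 5 without mouse R. Slc7a10, R55 against R33, reversed to -0.002 without mouse AD, in a range of -0.002 to 0.16. With the mouse as a block for the hemisphere comparison the members' median was -0.031 and no member was called, and as a random block the label letters gave 2 members called. The block changed no call of a member. The causes were not tested. 4 vehicle-treated mice limit every drug comparison.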
